A study of Mus musculus with 10 samples.

Results

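The genes described here are 9 markers of pericytes and stellate cells, chosen by symbol: Rgs5, Pdgfrb, Kcnj8, Abcc9, Myh11, Cspg4, Notch3, Mcam and Des. All 9 were among the 22731 genes of the count table, and 8 of them, all but Cspg4, were among the 16344 genes that passed the filter on low counts. Their RNA was measured in mouse fibroblasts grown with or without type 2 innate lymphoid cells (ILC2s), tissue lymphocytes that secrete the cytokine IL-13. The 3 IL13KO cocultures held fibroblasts with ILC2s labelled IL-13 knockout, the 3 WT cocultures held fibroblasts with wild-type ILC2s, and the 4 monocultures held fibroblasts alone. The fibroblasts carried the genotype label C57B6 in every group. They had been sorted as living cells without CD45, Epcam and CD31 and with Pdpn and Pdgfra, and ILC2s as KLRG1+ cells without CD3, B220 and lineage markers. After coculture a second sort on Pdpn and Pdgfra preceded RNA extraction, and the design text gives that gate as CD45+. The series title places the study in the pancreas. The labels give no age, length of culture, culture day or number of animals, so the p-values below measure the spread between libraries, which may be technical.

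Pericytes wrap small blood vessels, and stellate cells are the vitamin A-storing, desmin-bearing relatives of pericytes in pancreas and liver. Both are mesenchymal cells that endothelium recruits with platelet-derived growth factor (PDGF) acting on the receptor PDGFRβ, and Notch3 signalling and a vascular ATP-sensitive potassium channel mark the mature pericyte. The same genes can also be transcribed in fibroblasts, so that none of the 9 alone defines a pericyte. In bulk RNA, fewer cells of a type and less RNA per cell cannot be told apart.

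The sequences just upstream of 4 of the genes are shown because Rgs5, Kcnj8 and Abcc9 moved together and Notch3 moved in another way. RefSeq promoters on GRCm38.p6 were found for 7 of the 9 genes, and each line gives the bases before the RefSeq start, 5′ to 3′ on the gene's strand, without those that GENCODE M21 places inside the gene. Capitals mark matches to a searched motif.
Rgs5 (chr1:169655251-169655500, plus strand): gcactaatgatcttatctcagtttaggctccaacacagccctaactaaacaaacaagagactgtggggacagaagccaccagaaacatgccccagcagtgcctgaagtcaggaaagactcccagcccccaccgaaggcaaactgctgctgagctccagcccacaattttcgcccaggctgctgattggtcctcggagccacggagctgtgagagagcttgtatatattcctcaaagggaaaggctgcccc
Kcnj8 (chr6:142571615-142571864, minus strand): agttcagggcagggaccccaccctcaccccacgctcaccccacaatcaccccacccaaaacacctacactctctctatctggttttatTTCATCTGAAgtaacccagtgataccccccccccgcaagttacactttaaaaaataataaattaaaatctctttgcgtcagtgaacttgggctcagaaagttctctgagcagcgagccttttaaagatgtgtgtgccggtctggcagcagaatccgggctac
Abcc9 (chr6:142702316-142702524, minus strand): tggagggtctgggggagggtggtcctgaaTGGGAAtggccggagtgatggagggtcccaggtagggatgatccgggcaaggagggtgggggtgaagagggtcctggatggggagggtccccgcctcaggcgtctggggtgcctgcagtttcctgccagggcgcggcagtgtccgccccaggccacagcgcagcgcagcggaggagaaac
Notch3 (chr17:32166891-32167140, minus strand): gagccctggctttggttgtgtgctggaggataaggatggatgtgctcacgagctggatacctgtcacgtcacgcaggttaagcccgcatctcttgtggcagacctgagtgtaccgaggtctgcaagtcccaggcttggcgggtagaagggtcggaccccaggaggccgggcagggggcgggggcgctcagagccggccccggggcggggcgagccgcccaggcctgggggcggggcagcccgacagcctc
The CArG box, the serum response factor motif of smooth muscle genes, had no match in the 7 windows of 250 bases, against 1.47% of 32851 promoter windows with a match. The Notch effector motif TGGGAA matched once, upstream of Abcc9, and was present in 21.6% of all windows. The STAT6 motif TTCNNNNGAA matched once, upstream of Kcnj8, and was present in 5.85% of all windows. Both strands were searched and the matches did not overlap. The Rgs5 and Notch3 windows held none of the 3 motifs. G and C made up 53.6% of the Rgs5 window, 49.2% of the Kcnj8 window, 68.4% of the Abcc9 window and 68.8% of the Notch3 window.

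The libraries held 17277432 to 17661229 counts in IL13KO cocultures, 18801744 to 22087459 in WT cocultures and 10710410 to 14366199 in monocultures, so that 3 counts amounted to at most 0.171, 0.162 and 0.277 CPM (counts per 1000000 of the TMM-scaled library). Il13 had 0 reads in each IL13KO coculture, 30, 120 and 121 reads in WT cocultures and 0 in each monoculture. The summed level of 9 leukocyte markers ranged from 15.9 to 24.2 CPM in IL13KO cocultures, 101 to 124 CPM in WT cocultures and 3.63 to 7.66 CPM in monocultures. Most of this sum in the cocultures was Cd53 alone, which averaged 16.4, 104 and 3.13 CPM in the same order of groups. Ptprc, which encodes CD45 and defines leukocytes, had at most 1 read in an IL13KO coculture, 3 to 9 reads in WT cocultures and 0 in monocultures. Endothelial markers summed to 12.8 to 19.6 CPM in IL13KO cocultures, 43.9 to 47.1 CPM in WT cocultures and 6.5 to 13.2 CPM in monocultures. Within this sum, Flt1 averaged 2.46, 31.8 and 0.613 CPM and Egfl7 10.5, 11.9 and 7.61 CPM in the same order of groups. Pecam1, which defines endothelium, had only 10, 15 and 3 reads in all. Of the tested markers, 2 of 4 for leukocytes and 1 of 3 for endothelium, Flt1, were lower in IL13KO than in WT cocultures, none was higher, and the part of these cells in the results below was not tested. In the same comparison 1 of 5 ILC2 markers was higher and 3 lower, 2 of 5 epithelial and 1 of 3 Schwann cell markers were higher and none lower, and the 1 striated muscle marker was not called. The higher ILC2 marker was Rora, and the lower ones were Il5, Il13 and Thy1. The lower Il13 call was set by the design, since these ILC2s were labelled IL-13 knockout. Rora and Thy1 averaged 63.7 and 136 CPM in monocultures, so neither was particular to ILC2s here. The single higher ILC2 and Schwann cell calls were each lost in several fits without 1 library, and the 3 lower ILC2 calls numbered 1 without IL13KO library 1 or WT library 4. None of 5 mesothelial markers was called, but their median log2 fold change between IL13KO and WT cocultures was 2.76, and 1 was called without WT library 3 or monoculture 3. The mesothelial gene Upk3b had 28.3, 73.4 and 2.32 CPM in IL13KO cocultures, 0.179, 5.64 and 0 CPM in WT cocultures, and 1.18, 0, 45.9 and 2.53 CPM in monocultures. The summed mesothelial markers ranged from 107 to 228 CPM in IL13KO cocultures, 131 to 152 CPM in WT cocultures and 25 to 150 CPM in monocultures. Most of this sum in the WT cocultures was Wt1 alone, which averaged 110, 133 and 30.7 CPM in the same order of groups. Upk3b averaged 34.7, 1.94 and 12.4 CPM, Lrrn4 6.91, 1.01 and 0 CPM, and Krt19 0.53, 1.07 and 0.159 CPM, so the sum does not follow each marker. Without IL13KO library 2, the richest in Upk3b, 7 pericyte and stellate markers were called between the coculture groups, and without IL13KO library 1 there were 6. In each of these fits another IL13KO library with Upk3b remained, and the part of mesothelial cells in the results was not tested. Of 10 fibroblast markers 5 were higher and none lower. These fibroblast markers summed to 23353 to 28507 CPM in IL13KO cocultures, 12238 to 16479 CPM in WT cocultures and 7930 to 10996 CPM in monocultures. In the cocultures most of this sum was Col1a1 and Col3a1, averaging 11570 and 7402 CPM in IL13KO and 6756 and 3421 CPM in WT cocultures. Pdgfra and Pdpn, used in the sort, averaged 747 and 285 CPM in IL13KO and 633 and 328 CPM in WT cocultures. Neither was called between these groups. The 9 pericyte and stellate markers summed to 342 to 353, 78.4 to 133 and 133 to 168 CPM in IL13KO cocultures, WT cocultures and monocultures. Pdgfrb made up most of that sum in the cocultures.

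Of the 8 tested markers, 7 were higher in IL13KO than in WT cocultures, and none was lower. The exception was Mcam. A set of 4, Rgs5, Kcnj8, Abcc9 and Myh11, were also lower in WT cocultures than in monocultures and were not called between IL13KO cocultures and monocultures. Pdgfrb, Notch3 and Des were instead higher in IL13KO cocultures than in either other group, although against monocultures Notch3 (-0.03) and Des (0.16) lost this once a trend of the log2 fold changes with GC content and length was removed. A gene was called at an adjusted p below 0.05 in edgeR's quasi-likelihood test, adjusted by Benjamini-Hochberg over all tested genes. Of these, 23.3% were called between IL13KO and WT cocultures, 11.7% as higher and 11.6% as lower. The 3 IL13KO cocultures lay above the 3 WT cocultures for all 8 tested markers, as they did for 24.8% of all tested genes. The median log2 fold change was 1.55 over the 8 tested markers and 0.00 over all tested genes.

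Against monocultures the coculture effect was broad, so that a count of markers says less there. Between IL13KO cocultures and monocultures 57.4% of tested genes were called, 30.1% as higher and 27.3% as lower, beside 3 markers higher and none lower. Between WT cocultures and monocultures 62.5% of tested genes were called, 32.8% as higher and 29.7% as lower, beside no marker higher and 5 lower, Rgs5, Kcnj8, Abcc9, Myh11 and Mcam. Taking out the trend of the fold changes with gene GC content and length, which turned the split of all called genes between IL13KO cocultures and monocultures to 38% higher in place of 52.5%, changed these last 2 counts to 1 higher with 2 lower and to 0 higher with 8 lower. The median log2 fold change of all genes was then -0.16 between IL13KO cocultures and monocultures and -0.13 between WT cocultures and monocultures, against 0.00 and 0.02 before, and it was -0.10 and -0.11 under upper-quartile scaling. The comparison of IL13KO with WT cocultures kept 7 markers higher and none lower under the same trend removal. For 2 markers, Pdgfrb and Notch3, every IL13KO coculture lay above every monoculture, as for 30.9% of tested genes, and for none did every one lie below, as for 28.3% (59.2% in either direction). For 5 markers every WT coculture lay below every monoculture, as for 28.7% of tested genes, and for none did every one lie above, as for 32.2% (60.9% in either direction). Both coculture comparisons with monocultures share those 4 libraries.

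**Figure D1:**
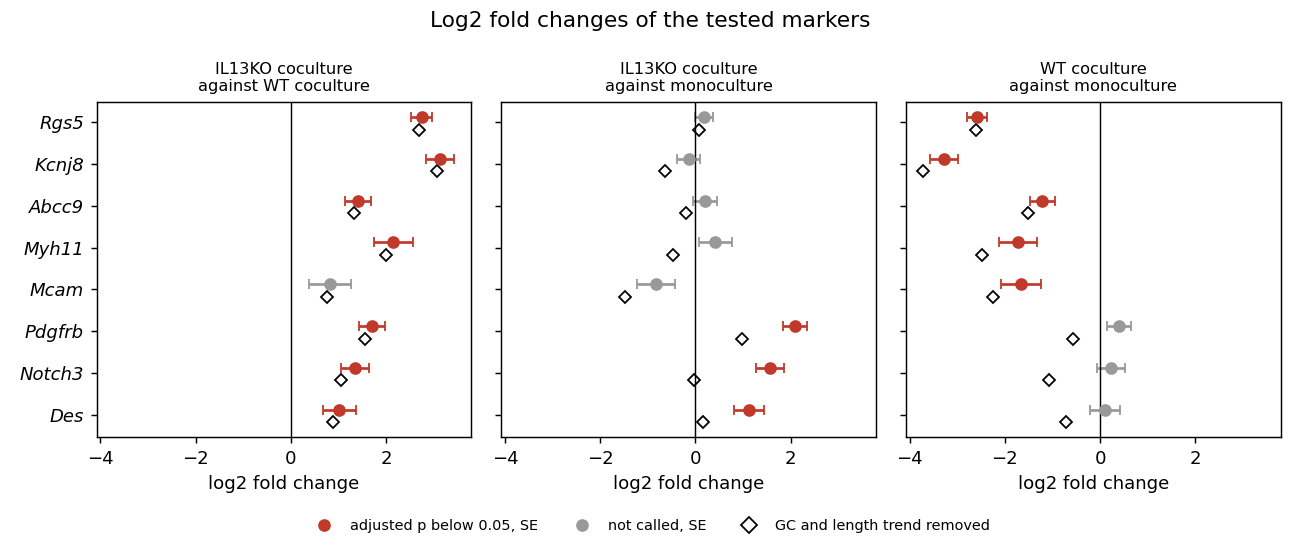
Log2 fold changes of the 8 tested markers (horizontal axis) in the 3 comparisons, with standard errors and, as open diamonds, the values after the GC/length trend was taken out. In the comparison of IL13KO with WT cocultures every marker lies right of 0, whereas Notch3 and Des move to -0.03 and 0.16 between IL13KO cocultures and monocultures once the trend is removed.

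Per kilobase of exon, Pdgfrb was the most abundant marker in both coculture groups, at 41, 12.6 and 9.66 CPM per kb on average in IL13KO cocultures, WT cocultures and monocultures. Rgs5 came next in IL13KO cocultures at 12.7 CPM per kb, averaged 1.88 in WT cocultures, below Des, and 11.3 in monocultures, where its libraries overlapped those of Pdgfrb. Des averaged 9.58, 4.74 and 4.44 CPM per kb, and Kcnj8 3.18, 0.363 and 3.5. Abcc9 averaged 1.5, 0.563 and 1.31 CPM per kb in these groups. Mcam, Myh11 and Notch3 averaged below 1 CPM per kb in every group. For comparison, Acta2, which encodes smooth muscle actin, averaged 399, 349 and 526 CPM per kb, and Pdgfra, the fibroblast receptor used in the sort, 74.5, 63.2 and 37.1.

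**Figure D2:**
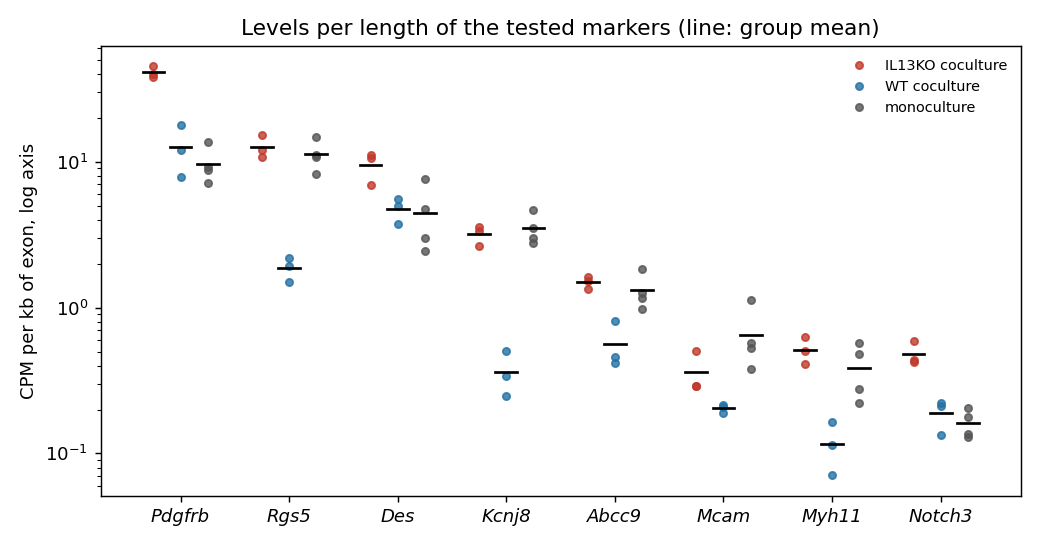
Levels of the 8 tested markers as CPM per kb of exon on a log axis, 1 point per library, with lines at the group means. Pdgfrb lies highest in both coculture groups, and Kcnj8 spans from a mean of 0.363 CPM per kb in WT cocultures to 3.5 in monocultures.

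Rgs5 encodes a regulator that speeds the shutdown of G-protein signalling and is among the most selective pericyte transcripts. On chromosome 1 (GRCm38, 169655501 to 169695813, plus strand) it had 69.5, 48.8 and 54.8 CPM in IL13KO cocultures, against 10, 8.81 and 6.79 CPM in WT cocultures and 67.6, 49, 37.7 and 51.1 CPM in monocultures. The 3 WT cocultures lay below every other library, and IL13KO cocultures and monocultures overlapped. The difference was 6.74-fold between IL13KO and WT cocultures (log2 2.75 ± 0.22, SE, edgeR adjusted p = 3.28e-06), and the WT level was 6-fold lower than in monocultures (log2 -2.58 ± 0.21, edgeR adjusted p = 5.81e-07). In all, 0.783% of tested genes had a larger log2 fold change between IL13KO and WT cocultures. Between IL13KO cocultures and monocultures the log2 difference was 0.17 ± 0.19 (edgeR adjusted p = 0.466).

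Rgs4, a regulator of the same R4 family, lies 45.7 kb beyond the end of Rgs5 on the opposite strand with no other gene of the table between them. It had 282, 250 and 281 CPM in IL13KO cocultures, 177, 168 and 145 CPM in WT cocultures, and 224, 156, 130 and 173 CPM in monocultures. Its difference between IL13KO and WT cocultures was log2 0.73 ± 0.16 (edgeR adjusted p = 0.00582), and between WT cocultures and monocultures it was not called (log2 -0.06 ± 0.15, edgeR adjusted p = 0.739). The ratio of Rgs5 to Rgs4, each per kb, was 0.168, 0.133 and 0.133 in IL13KO cocultures, 0.0386, 0.0357 and 0.0319 in WT cocultures, and 0.206, 0.214, 0.198 and 0.202 in monocultures. The 3 groups did not overlap (exact two-sided permutation p = 0.1 between coculture groups and 0.0571 against monocultures, the smallest that these group sizes allow). Of the 6 tested R4 family genes, Rgs5 among them, 3 were higher and none lower in IL13KO than in WT cocultures, with a median log2 fold change of 0.77. Rgs2, which acts on Gq signalling in smooth muscle, was the third, at log2 1.05 ± 0.27 (edgeR adjusted p = 0.0144), a call lost without IL13KO library 3 (adjusted p = 0.0558) or WT library 3 (adjusted p = 0.0515). Unlike Rgs5, Rgs2 was called lower than in monocultures in both coculture groups, averaging 3.56 CPM in IL13KO cocultures, 1.71 in WT cocultures and 13.8 in monocultures. In WT cocultures the difference from monocultures was log2 -3.00 ± 0.26 (edgeR adjusted p = 8.55e-07). The R4 genes Rgs8 and Rgs16 were higher in cocultures than in monocultures, with log2 differences of 4.03 and 1.27 in IL13KO cocultures and of 3.22 and 1.02 in WT cocultures.

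Kcnj8 and Abcc9 encode the pore (Kir6.1) and the sulfonylurea receptor (SUR2) of the vascular ATP-sensitive potassium channel. They lie on the minus strand of chromosome 6 with a gap of 16.2 kb and no other table gene between them, Kcnj8 from 142564837 to 142571614 and Abcc9 from 142587862 to 142702315. Kcnj8 had 8.51, 9.09 and 6.69 CPM in IL13KO cocultures, against 0.628, 1.28 and 0.862 CPM in WT cocultures and 8.95, 11.9, 7.1 and 7.66 CPM in monocultures. It showed the largest fold change of the 8 tested markers, 8.76-fold higher in IL13KO than in WT cocultures (log2 3.13 ± 0.30, edgeR adjusted p = 1.35e-05). Its level in WT cocultures was 9.66-fold lower than in monocultures (log2 -3.27 ± 0.29, edgeR adjusted p = 1.06e-06), and 0.857% of tested genes had a lower log2 fold change. These WT levels rest on 55 reads over 3 libraries, beside 428 reads in IL13KO cocultures and 453 in monocultures.

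Abcc9 followed with a smaller change. It had 13.6, 12.8 and 11.3 CPM in IL13KO cocultures, 6.82, 3.48 and 3.83 CPM in WT cocultures, and 9.8, 8.22, 10.5 and 15.3 CPM in monocultures. The WT cocultures lay below all other libraries. Abcc9 was 2.65-fold higher in IL13KO than in WT cocultures (log2 1.41 ± 0.28, edgeR adjusted p = 0.00285) and 2.32-fold lower in WT cocultures than in monocultures (log2 -1.21 ± 0.27, edgeR adjusted p = 0.00152). The ratio of Kcnj8 to Abcc9, each per kb, was 2.05, 2.33 and 1.95 in IL13KO cocultures, 0.303, 1.21 and 0.741 in WT cocultures, and 3, 4.77, 2.22 and 1.64 in monocultures, so that the pore transcript was lower relative to its partner in every WT coculture (exact two-sided permutation p = 0.1 against IL13KO cocultures, the smallest 3 against 3 allows, and 0.0571 against monocultures). Neither channel gene was called between IL13KO cocultures and monocultures, with log2 differences of -0.14 ± 0.24 for Kcnj8 and 0.20 ± 0.25 for Abcc9 (edgeR adjusted p = 0.632 and 0.524). Once the GC/length trend was removed, Kcnj8 was called lower there at -0.65 (adjusted p = 0.0393) and Abcc9 turned to -0.19. Abcc8, the pancreatic islet receptor subunit SUR1, had 0 to 3 reads per library.

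**Figure D3:**
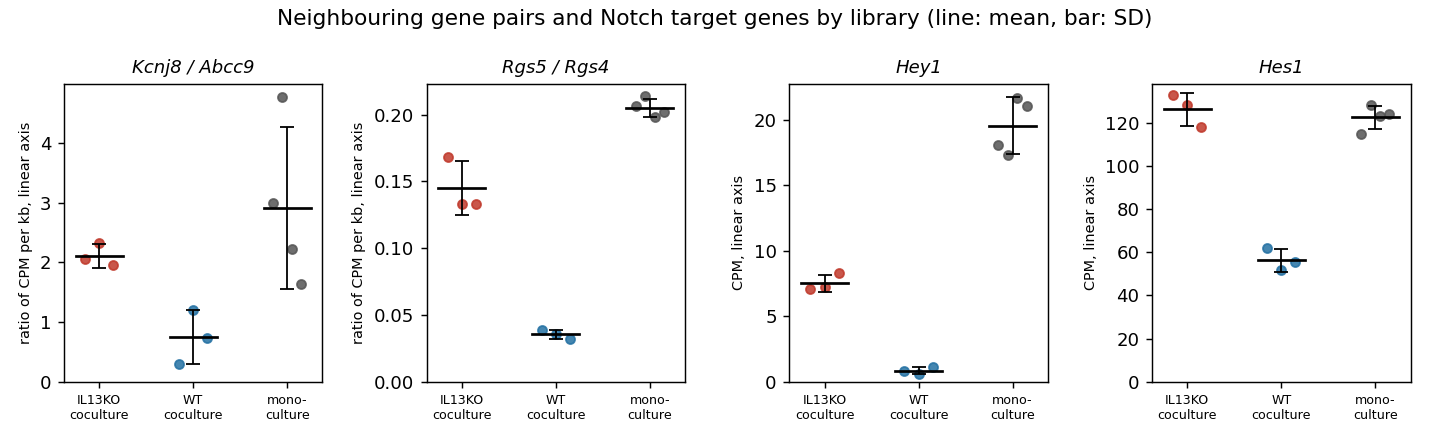
Ratios of Kcnj8 to Abcc9 and of Rgs5 to Rgs4 (each as CPM per kb of exon), and CPM of the Notch target genes Hey1 and Hes1, by library on linear axes, with the group mean as a line and the SD as a bar. All 4 panels are lowest in the 3 WT cocultures without overlap.

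Myh11 encodes the myosin heavy chain of smooth muscle and sets contractile mural cells apart from other pericytes. Lying on chromosome 16 (14194535 to 14291372, minus strand), it was a rare transcript, with 3.86, 3.13 and 4.76 CPM in IL13KO cocultures, 0.538, 0.871 and 1.24 CPM in WT cocultures, and 2.11, 3.63, 4.33 and 1.69 CPM in monocultures. The WT cocultures were lowest without overlap. Myh11 was 4.45-fold higher in IL13KO than in WT cocultures (log2 2.15 ± 0.41, edgeR adjusted p = 0.00212) and 3.32-fold lower in WT cocultures than in monocultures (log2 -1.73 ± 0.40, edgeR adjusted p = 0.00203). Its log2 difference between IL13KO cocultures and monocultures, 0.42 ± 0.35, was not called (edgeR adjusted p = 0.319) and turned to -0.48 once the GC/length trend was removed.

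Other contractile genes were mixed. Of 17 tested, 6 were higher and 2 lower in IL13KO than in WT cocultures, with a median of 0.19, and the higher count was 2 without IL13KO library 1 and 3 without IL13KO library 2 or 3 or WT library 3 or 4. Cnn1 and Itga8, named after their values were seen, had the same calls as Myh11. Cnn1, which encodes calponin, averaged 230 ± 63.5 CPM in IL13KO cocultures, 115 ± 14.8 in WT cocultures (SD, n = 3 each) and 207 ± 48.2 in monocultures (SD, n = 4), and was 2-fold higher in IL13KO than in WT cocultures (SE 0.22 on the log2 scale, edgeR adjusted p = 0.00632) and lower in WT cocultures than in monocultures (log2 -0.84 ± 0.21, edgeR adjusted p = 0.00376). Itga8, an integrin gene, averaged 1.7, 0.328 and 3.14 CPM, and its call between coculture groups (log2 2.34 ± 0.75, edgeR adjusted p = 0.0399) was lost without any 1 of the 6 coculture libraries (adjusted p = 0.0558 to 0.14). Acta2 averaged 875 ± 156 CPM in IL13KO cocultures, 767 ± 132 in WT cocultures (SD, n = 3 each) and 1156 ± 97.2 in monocultures (SD, n = 4), with no call between the coculture groups (log2 0.19 ± 0.15, edgeR adjusted p = 0.381). Tagln, which encodes the actin-binding protein transgelin, averaged 262, 245 and 408 CPM and was likewise not called between them (log2 0.10 ± 0.14, edgeR adjusted p = 0.658). Myocd, the coactivator that drives smooth muscle genes, went opposite to Myh11, with 0.681 ± 0.283 CPM in IL13KO cocultures, 19.5 ± 1.03 CPM in WT cocultures and 0.0637 ± 0.087 CPM in monocultures. It was lower in IL13KO than in WT cocultures by log2 -4.82 ± 0.33 (edgeR adjusted p = 1.29e-06), and its 4 monocultures held 3 reads in all.

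Mcam, the adhesion molecule CD146 of pericytes and endothelium, was near the limit of the low-count filter. Lying on chromosome 9 (44134469 to 44142727, plus strand), it had 0.964, 0.966 and 1.7 CPM in IL13KO cocultures, 0.628, 0.717 and 0.701 CPM in WT cocultures, and 1.77, 1.93, 3.78 and 1.27 CPM in monocultures. The WT cocultures were again the lowest. Its log2 difference of 0.82 ± 0.45 between coculture groups was not called (edgeR adjusted p = 0.21), and that of -1.66 ± 0.42 between WT cocultures and monocultures was (3.15-fold lower, edgeR adjusted p = 0.00399). Between IL13KO cocultures and monocultures the difference was -0.83 ± 0.40 (edgeR adjusted p = 0.0908), which became a call at -1.03 without monoculture 4 (adjusted p = 0.0398) and at -1.49 once the GC/length trend was removed (adjusted p = 0.00499). Small parts of the exons of Mcam (0.507%) and Abcc9 (1.89%) overlap a gene on the other strand.

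Pdgfrb encodes the PDGF receptor through which endothelial PDGF-B holds pericytes on the vessel wall. On chromosome 18 (GRCm38, 61045150 to 61085061, plus strand) it had 208, 247 and 219 CPM in IL13KO cocultures, against 98.7, 65.9 and 43 CPM in WT cocultures and 50.4, 39, 74.3 and 48 CPM in monocultures. Every IL13KO coculture lay above every other library, and WT cocultures and monocultures overlapped. Pdgfrb was 3.24-fold higher in IL13KO than in WT cocultures (log2 1.70 ± 0.27, edgeR adjusted p = 0.000605) and 4.25-fold higher than in monocultures (log2 2.09 ± 0.25, edgeR adjusted p = 1.9e-05). Once the GC/length trend was removed, the difference from monocultures was 0.98 (adjusted p = 0.000469). Between WT cocultures and monocultures the difference of 0.39 ± 0.25 was not called (edgeR adjusted p = 0.183), became a call without WT library 4 (0.65, adjusted p = 0.0254) or monoculture 3 (0.59, adjusted p = 0.0387), and turned to -0.57 (adjusted p = 0.0161) with the trend taken out.

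The ratio of Pdgfrb to Pdgfra per kb was 0.463, 0.587 and 0.616 in IL13KO cocultures, 0.242, 0.217 and 0.132 in WT cocultures, and 0.249, 0.191, 0.359 and 0.24 in monocultures, without overlap between IL13KO cocultures and either other group (exact two-sided permutation p = 0.1 against WT cocultures and 0.0571 against monocultures, the smallest possible). Pdgfra itself was not called between the coculture groups (log2 0.24 ± 0.12, edgeR adjusted p = 0.167). Among ligands, Pdgfd, which signals through PDGFRβ, averaged 51.1 CPM in IL13KO cocultures, 22 in WT cocultures and 123 in monocultures, and was higher in IL13KO than in WT cocultures (log2 1.22 ± 0.17, edgeR adjusted p = 0.000292) and lower in IL13KO cocultures than in monocultures (log2 -1.27 ± 0.16, edgeR adjusted p = 3.29e-05). Pdgfc, which acts mainly on PDGFRα, averaged 21.4, 54.5 and 8.62 CPM and was lower in IL13KO than in WT cocultures (log2 -1.35 ± 0.25, edgeR adjusted p = 0.00193). Of the 5 tested genes of this list, Pdgfd was the 1 higher and Pdgfc the 1 lower in IL13KO than in WT cocultures, with 2 higher without WT library 1 and 2 lower without IL13KO library 3, monoculture 1 or monoculture 3.

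**Figure D4:**
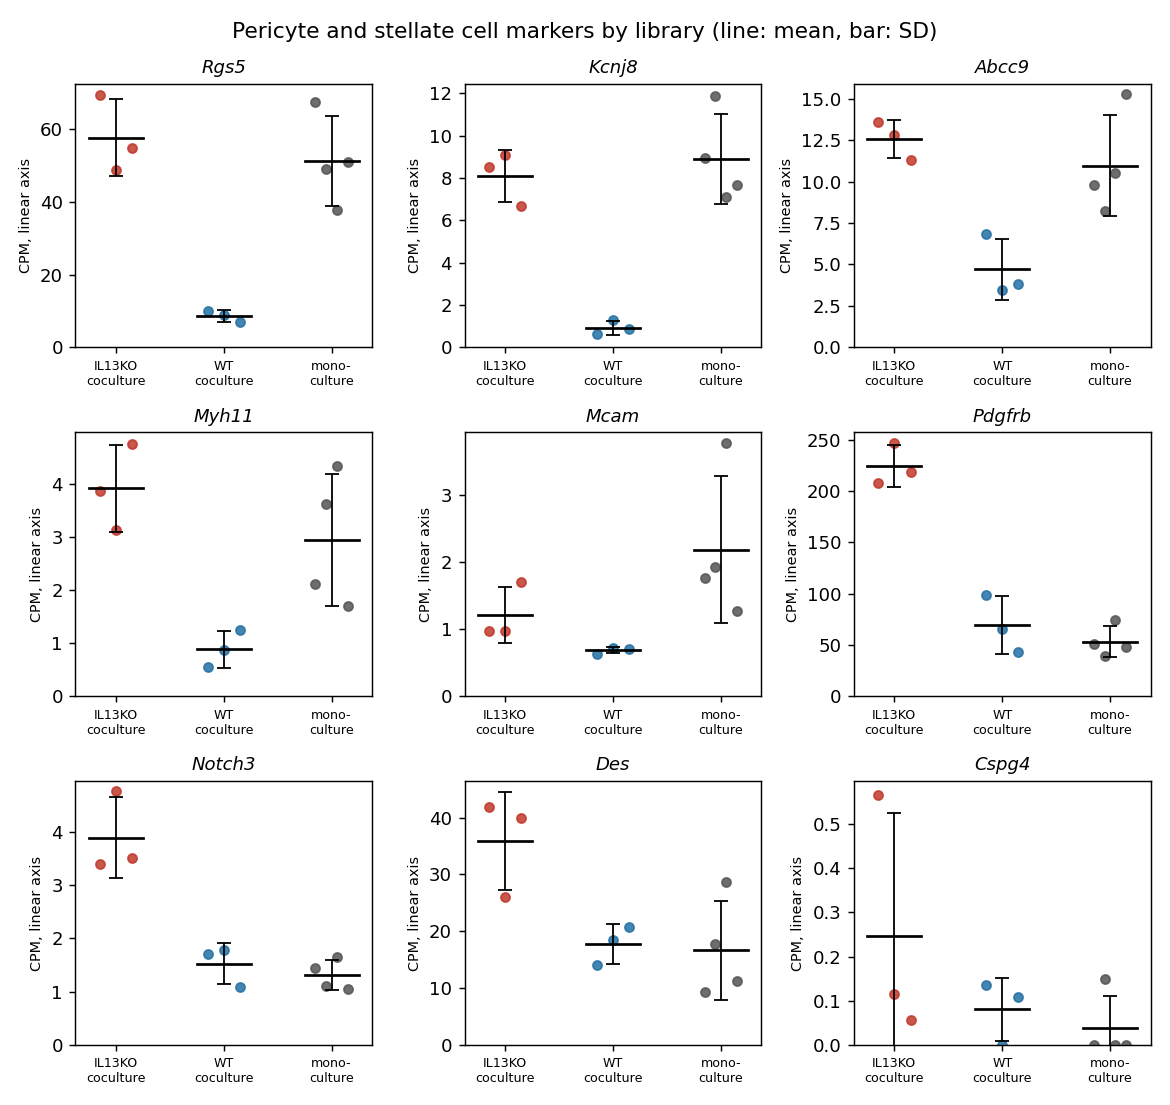
CPM of all 9 markers by library on linear axes, with the group mean as a line and the SD as a bar. The 3 WT cocultures are lowest for Rgs5, Kcnj8, Abcc9, Myh11 and Mcam, whereas the 3 IL13KO cocultures are highest for Pdgfrb and Notch3.

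Notch3 is the Notch receptor of mural cells, which binds Jagged ligands on neighbouring cells. From chromosome 17 (32120820 to 32166852, minus strand) it had 3.4, 4.77 and 3.52 CPM in IL13KO cocultures, against 1.71, 1.79 and 1.08 CPM in WT cocultures and 1.44, 1.11, 1.66 and 1.05 CPM in monocultures. Every IL13KO coculture lay above every other library. These levels rest on 206 reads in IL13KO cocultures, 93 in WT cocultures and 65 in monocultures. Notch3 was 2.54-fold higher in IL13KO than in WT cocultures (log2 1.34 ± 0.29, edgeR adjusted p = 0.00555) and 2.98-fold higher than in monocultures (log2 1.57 ± 0.29, edgeR adjusted p = 0.00047), but the difference from monocultures was -0.03 once the GC/length trend was removed. G and C make up 59.6% of the longest transcript of Notch3. Between WT cocultures and monocultures the difference of 0.23 ± 0.30 was not called (edgeR adjusted p = 0.527) and turned to -1.08 (adjusted p = 0.0051) with the trend removed. Of its exon bases 6.03% overlap Gm17276 on the other strand, and whether the counting used strand is not given in the sources used here.

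Of 23 other tested genes of the Notch pathway, 4 were higher and none lower in IL13KO than in WT cocultures, with a median log2 fold change of 0.09. Without monoculture 1 the counts were 7 higher and 1 lower. The 4 were the target genes Hes1 and Hey1 and the coactivators Maml2 and Maml3. Hey1 had 7.09, 7.22 and 8.28 CPM in IL13KO cocultures, 0.808, 0.615 and 1.13 CPM in WT cocultures, and 18.1, 17.3, 21.7 and 21.1 CPM in monocultures. The 3 groups were fully separate, with Hey1 8.81-fold higher in IL13KO than in WT cocultures (log2 3.14 ± 0.23, edgeR adjusted p = 1.77e-06) and lower in IL13KO cocultures than in monocultures (log2 -1.37 ± 0.18, edgeR adjusted p = 3.82e-05). Hes1 averaged 126 ± 7.38 CPM in IL13KO cocultures and 56.3 ± 5.28 in WT cocultures (SD, n = 3 each), with 122 ± 5.36 in monocultures (SD, n = 4), and was higher in IL13KO than in WT cocultures (log2 1.16 ± 0.10, edgeR adjusted p = 5.76e-06). The ligand gene Jag1 was not called between the coculture groups (log2 -0.05 ± 0.20, edgeR adjusted p = 0.889).

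Des encodes desmin, the intermediate filament of muscle and stellate cells. From chromosome 1 (75360329 to 75368579, plus strand) it had 41.8, 26 and 40 CPM in IL13KO cocultures, 14, 18.5 and 20.8 CPM in WT cocultures, and 9.21, 17.7, 28.6 and 11.2 CPM in monocultures. The coculture groups did not overlap, whereas the monocultures spanned both. Des was 2.02-fold higher in IL13KO than in WT cocultures (log2 1.02 ± 0.34, edgeR adjusted p = 0.0461), close to the threshold: the call was lost without any 1 of IL13KO libraries 1 (adjusted p = 0.152) and 3 (adjusted p = 0.129), WT libraries 1 (0.144), 3 (0.116) and 4 (0.0818) and monoculture 2 (0.0545). Against monocultures it was called 2.17-fold higher in IL13KO cocultures (log2 1.12 ± 0.32, edgeR adjusted p = 0.009), which fell to 0.16 (adjusted p = 0.63) once the GC/length trend was removed. Monoculture 3 was the highest of its group for Des, Pdgfrb, Mcam, Myh11 and Notch3 and was also the monoculture with the most Upk3b. Of Des exon bases 5.86% overlap Gm15179 on the other strand.

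Desmin's partner genes were mixed, with 1 of 7 tested higher and 2 lower in IL13KO than in WT cocultures, the lower count being 0 without IL13KO library 1 or WT library 4 and 1 without any other coculture library. Cryab, the chaperone αB-crystallin that binds desmin, averaged 149 ± 21.4 CPM in IL13KO cocultures and 47.8 ± 3.09 in WT cocultures (SD, n = 3 each), with 405 ± 62.5 in monocultures (SD, n = 4), and was higher in IL13KO than in WT cocultures (log2 1.64 ± 0.14, edgeR adjusted p = 5.57e-06). Vim, which encodes vimentin, was lower in IL13KO than in WT cocultures (log2 -0.60 ± 0.15, edgeR adjusted p = 0.0121), a call lost without IL13KO library 1 or WT library 4.

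Cspg4, the NG2 proteoglycan used as a classic pericyte antigen, did not reach the filter. From chromosome 9 (56865033 to 56899870, plus strand) it had 10, 2 and 1 reads in IL13KO cocultures, 3, 0 and 2 reads in WT cocultures, and 0, 2, 0 and 0 reads in monocultures. IL13KO library 1 held most of its group's 13 reads. The ratio of summed reads, scaled to library size, was 2.97 between IL13KO and WT cocultures, with an exact 95% interval of 0.993 to 10.6 that covers counting error only. Between IL13KO cocultures and monocultures, with 13 and 2 reads, it was 6.2 (1.4 to 56.6).

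Among the other pericyte and mural markers, more were higher than lower in IL13KO than in WT cocultures. Of 25 tested, 8 were higher and 3 lower (median log2 0.33), the lower count being 0 without IL13KO library 1, 1 without IL13KO library 3 and 5 without monoculture 1, and 6 were higher and 10 lower in WT cocultures than in monocultures (median -0.09). Vtn, which encodes the adhesive protein vitronectin, averaged 6.01 CPM in IL13KO cocultures, 0.403 in WT cocultures and 6.72 in monocultures, and was higher in IL13KO than in WT cocultures by log2 3.89 ± 0.37 (edgeR adjusted p = 1.23e-05). Ednrb, the endothelin B receptor, averaged 28.6, 5.37 and 21.7 CPM and was also higher in IL13KO than in WT cocultures (log2 2.41 ± 0.26, edgeR adjusted p = 3.53e-05). Aspn, which encodes the matrix protein asporin, averaged 19.2, 4.78 and 185 CPM, and was lower in IL13KO cocultures than in monocultures (log2 -3.27 ± 0.22, edgeR adjusted p = 4.27e-07). Cd248, the surface protein endosialin, went the other way, with 368, 800 and 23.7 CPM and a log2 difference of -1.12 ± 0.29 between IL13KO and WT cocultures (edgeR adjusted p = 0.0142), lost without IL13KO library 1 (adjusted p = 0.0667) or WT library 1 (adjusted p = 0.0507).

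Over the 10 libraries, the log2 levels of the 8 tested markers fell into loose sets, given as a description because the points share the 3 groups. Pearson's r was 0.96 for Kcnj8 with Rgs5, 0.89 for Abcc9 with Rgs5 and 0.97 for Notch3 with Pdgfrb, against 0.32 for Pdgfrb with Rgs5. Among 8378 genes searched, those most like Rgs5 were Arxes2 (r = 0.995) and Wfdc17 (0.994), and those most like Kcnj8 were Ctsb (0.989) and Mmp3 (0.984). Abcc9 was most like Slc5a3 (0.976) and Agtr1a (0.958), the angiotensin receptor gene. Pdgfrb was most like Col15a1 (0.986) and Eln (0.985), which encode collagen XV and elastin, and Notch3 was most like Col15a1 (0.986) and C4b (0.982). For Myh11 the closest genes were Elk3 (0.935) and Smad7 (0.933), for Mcam Ckb (0.940) and Wsb2 (0.934), and for Des Snrk (0.905) and Pbxip1 (0.901). The pattern of Rgs5, Kcnj8, Abcc9 and Myh11, higher in IL13KO than in WT cocultures, lower in WT cocultures than in monocultures and not called between IL13KO cocultures and monocultures, was shared by 638 genes, 3.9% of those tested. That of Pdgfrb, Notch3 and Des, higher in IL13KO cocultures than in both other groups, was shared by 542 genes, or 3.32%. Both counts use the calls of the main analysis. Against monocultures, Notch3 and Des lost theirs once the GC/length trend was removed.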

How the data were processed

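Bulk RNA from 10 libraries was made into low-input libraries and read from both ends, per the labels' protocols. The authors deposited raw read counts per gene, whole numbers keyed by Ensembl identifier. Their processing notes name STAR 2.7.7a, Salmon 1.6.0, DESeq2, Picard, Trimmomatic 0.39, FastQC 0.11.9 and the build GRCm38.p6; which tool counted the reads, and whether by strand, is not given in the sources used here. A deposited normalized table was not used, and 0 value columns of the count table were left out. Of 22731 identifiers, 22647 matched GENCODE M21 (GRCm38), which gave positions and exon lengths.

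Counts were fitted in edgeR 4.0.16 (R 4.3.3; TMM scaling, filterByExpr, 1 coefficient per group, all 10 libraries), with quasi-likelihood tests and Benjamini-Hochberg adjustment over 16344 genes; the script was tested on simulated data. CPM are TMM-scaled, and ± is SE for log2 fold changes and SD for levels. Alternatives were DESeq2 1.42.0, limma-voom 3.58.1, other scalings and filters, a replicate block, only the 2 groups compared, each library left out, and removal of a loess trend (span 0.4) on GC content and length. WT columns could be tied to their group but not to single samples, so their libraries keep the column numbers 1, 3 and 4. The markers and the 17 gene lists were chosen with earlier results of these data known. Genes outside the markers could be named where they rank among the 4 smallest adjusted p of a list, are direct partners of a marker (Acta2 and Tagln counted among them), or are among the 2 genes most correlated with one. Ptprc and Pecam1 are named because they define a cell type. Maml2, Maml3, Cnn1, Itga8, Col1a1, Col3a1 and Rora were named after their values were seen.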

Additional observations from a re-analysis of the deposited data

Results flagged for a closer look

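A few values stood apart within the 4 monocultures, by a gap to the nearest library that was too large a share of the group's range; about 5% of groups are picked out this way by chance, and 45 genes were looked at. Cspg4 had 0.148 CPM in monoculture 2 and 0 in the other 3, a difference that rests on 2 reads. Plin2, which encodes a lipid droplet protein, had 158 CPM in 1 monoculture and 137 to 140 CPM in the others. Upk3b had 45.9 CPM in monoculture 3 and 0 to 2.53 CPM in the others.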

How the results depend on the processing

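Of 456 alternative values of the markers' fold changes, 431 kept direction and call, 9 lost the call, 5 gained it and 11 changed sign. All sign changes were in comparisons with monocultures, and none was of a value called in the main analysis other than Notch3. Removing the GC/length trend gave -0.19 for Abcc9, -0.48 for Myh11 and -0.03 for Notch3 between IL13KO cocultures and monocultures, and -0.57 for Pdgfrb, -1.08 for Notch3 and -0.71 for Des between WT cocultures and monocultures, where it raised the count of markers called to 8. Col4a2, not one of the 9 markers, was called higher in WT cocultures than in monocultures and turned to -0.09 with the trend removed. Between WT cocultures and monocultures Des gave -0.02 under upper-quartile scaling and -0.10 to 0.48 with 1 library left out. With 1 library left out Kcnj8 gave -0.24 to 0.03 between IL13KO cocultures and monocultures. Genes called between IL13KO and WT cocultures numbered 3810, 5806 with only those groups fitted, 2124 with a replicate block and 2337 to 4814 with 1 library left out (2482 without IL13KO library 1, 2337 without IL13KO library 2 and 2523 without WT library 4). The causes were not tested. Same-numbered libraries did not deviate together (r -0.126 to 0.028 over 8 pairs; own number best in 1 of 16 cases), so numbers were not taken as pairs. With the replicate block, Notch3 (1.17, adjusted p = 0.0574), Des (1.04, adjusted p = 0.101) and Vim (-0.57, adjusted p = 0.0598) were no longer called between IL13KO and WT cocultures. Depth limits Cspg4, Mcam, Myh11, Notch3 and, in WT cocultures, Kcnj8.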

Other observations

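Among stellate cell markers outside the 9 genes, lipid storage genes were higher in IL13KO than in WT cocultures. Of 15 tested, 7 were higher and 5 lower, the lower count being 1 without IL13KO library 1 or WT library 4 and 2 without IL13KO library 2. Fabp4, which encodes a fatty acid carrier, averaged 30.1 ± 3.69 CPM in IL13KO cocultures and 9.24 ± 1.95 in WT cocultures (SD, n = 3 each), with 93.9 ± 14.9 in monocultures (SD, n = 4). It was higher in IL13KO than in WT cocultures by log2 1.71 ± 0.18 (edgeR adjusted p = 2.94e-05) and lower than in monocultures by log2 -1.64 ± 0.16 (edgeR adjusted p = 5.72e-06). Pparg, the lipid storage regulator of quiescent stellate cells, averaged 56.5, 26.7 and 75 CPM in these groups, and was higher in IL13KO than in WT cocultures by log2 1.08 ± 0.14 (edgeR adjusted p = 0.000171).

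Of 12 basement membrane genes of the vessel wall, 4 were higher and none lower in IL13KO than in WT cocultures, also once the GC/length trend was removed. Of all tested genes, 11.7% were called higher and 11.6% lower there. Nid2, which encodes a nidogen, averaged 59 ± 4.83 CPM in IL13KO cocultures, 14.9 ± 3.1 in WT cocultures and 15.7 ± 5.96 in monocultures (log2 1.98 ± 0.27 between coculture groups, edgeR adjusted p = 0.000199). Col4a2, a collagen IV chain, averaged 82.8, 30.1 and 12.3 CPM (log2 1.46 ± 0.24 between coculture groups, edgeR adjusted p = 0.000889). Against monocultures 11 of the 12 were higher in IL13KO cocultures, and 6 with the trend taken out. In WT cocultures 7 were higher and 1 lower than in monocultures, and 3 higher and 3 lower with the trend taken out. Of all tested genes, 30.1% were called higher in IL13KO cocultures and 32.8% in WT cocultures than in monocultures.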
